A study of Mus musculus with 12 samples.

Results

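The 10 genes described here are core genes of the pluripotency network of mouse embryonic stem cells: Sox2, Stat3, Pou5f1, Nanog, Klf4, Esrrb, Zfp42, Tfcp2l1, Prdm14 and Tbx3. They were chosen by name, with earlier results of these data known, out of 21523 protein-coding genes on chromosomes 1 to 19 and X. Their RefSeq bodies with 50 kb on each side were intersected with the listed domains of H4K20me3, a histone modification of heterochromatin. The line, dTKO, is one of mouse embryonic stem cells. Their labels give floxed Suv39h1 and Setdb1 alleles and a null Suv39h2 (Suv39h1fl/fl, Suv39h2-/-, Setdb1fl/fl), a genotype that all 12 samples shared. These 3 genes encode methyltransferases of histone H3 lysine 9. The medium held auxin (100 μg/ml) and dTAG13 (0.5 μM), small molecules used to trigger degradation of tagged proteins, for 0, 12, 24 or 48 h, with 3 replicates per time, and the labels name the same treatment at 0 h. The cells were grown with LIF and serum on gelatin.

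The study followed the loss of H4K20me3 after ablation of these enzymes. The values used here were 1 list of 28210 domains, each given only by its position on mm10. The list names no sample or time and carries no signal, so nothing below is a change over time, no replicate error exists, and the depth behind each domain is unknown. It also holds no expression values, so the labelled cell type could not be checked against its markers.

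Pou5f1 (Oct4), Sox2 and Nanog encode the transcription factors at the centre of the pluripotency network. Klf4, Esrrb, Tfcp2l1, Tbx3 and Prdm14 encode further factors that maintain the naive state, Stat3 transmits the signal of the cytokine LIF, and Zfp42 (Rex1) is a widely used marker of naive cells. H4K20me3 is laid down largely at sites of H3K9me3, such as pericentromeric repeats and endogenous retroviruses, by SUV420H enzymes that are recruited through HP1 proteins.

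H4K20me3 domains met the bodies of Sox2 and Stat3 and of none of the other 8 genes. This count of 2 in 10 stood beside 14.1% of all protein-coding genes, near the background for a set of this size. Zfp42, Pou5f1 and Tfcp2l1 had a domain outside the body but within 50 kb, which brought the count to 5 of 10 with a domain in the body or its 50 kb flanks, beside 55.8% of protein-coding genes. Nanog, Klf4, Prdm14, Tbx3 and Esrrb had none in that window. The median distance to the nearest domain, with an overlap taken as 0, was 51.95 kb for the 10 genes and 38.3 kb for protein-coding genes. The order of these medians turned for the 8 genes with an annotated start, at 30.7 kb from the body beside 37.5 kb for protein-coding genes with a start, and 40.6 kb from the start beside 53.9 kb. Without domains under 1 kb, the counts fell to 1 of 10 in the body (13.0% of protein-coding genes) and 3 of 10 within 50 kb (52.3%), and the median over the 10 rose to 95.05 kb, beside 44.9 kb. The 50 kb limit fell between Tfcp2l1, at 38.7 kb, and Nanog, at 65.2 kb. These are counts in a single domain list, given without a test.

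The sequences before the starts of 4 of these genes are shown. The listed domains left them free, as with most genes: a domain touched 1.54% of 17274 windows around protein-coding starts. The RefSeq promoters (GRCm38.p6) of Sox2, Zfp42, Stat3 and Nanog are given as the 250 bases before the annotated start, 5′ to 3′ on the strand of the gene, with CpG dinucleotides in capitals. Sox2 and Stat3 are the genes with a domain in the body, Zfp42 has the nearest domain among the rest, and Nanog is shown as a promoter with few CpGs and no domain within 50 kb. The promoters lie at chr3:34649745-34649994 (plus strand) for Sox2, chr8:43307010-43307259 (minus strand) for Zfp42, chr11:100939541-100939790 (minus strand) for Stat3 and chr6:122707239-122707488 (plus strand) for Nanog.
Sox2: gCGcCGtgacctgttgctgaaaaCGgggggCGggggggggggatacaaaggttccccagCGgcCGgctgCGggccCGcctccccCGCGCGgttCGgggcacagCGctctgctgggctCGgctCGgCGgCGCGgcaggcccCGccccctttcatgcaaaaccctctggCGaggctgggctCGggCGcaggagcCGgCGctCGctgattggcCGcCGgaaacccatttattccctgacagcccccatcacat
Zfp42: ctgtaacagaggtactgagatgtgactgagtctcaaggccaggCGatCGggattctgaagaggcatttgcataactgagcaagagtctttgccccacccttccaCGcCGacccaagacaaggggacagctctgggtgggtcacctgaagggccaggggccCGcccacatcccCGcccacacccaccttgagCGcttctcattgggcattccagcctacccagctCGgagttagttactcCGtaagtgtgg
Stat3: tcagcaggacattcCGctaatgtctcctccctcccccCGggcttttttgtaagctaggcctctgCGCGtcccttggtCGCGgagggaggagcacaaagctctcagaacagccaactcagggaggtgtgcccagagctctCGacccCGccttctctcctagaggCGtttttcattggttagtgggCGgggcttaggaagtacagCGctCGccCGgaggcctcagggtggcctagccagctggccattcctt
Nanog: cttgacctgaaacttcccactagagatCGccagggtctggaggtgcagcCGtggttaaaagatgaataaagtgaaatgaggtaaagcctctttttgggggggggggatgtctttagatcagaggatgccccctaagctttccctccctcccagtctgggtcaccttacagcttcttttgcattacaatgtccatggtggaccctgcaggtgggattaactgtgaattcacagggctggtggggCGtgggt
CpGs are dense along the Sox2 sequence, with 27 in 250 bases, against 9 in Zfp42, 13 in Stat3 and 3 in Nanog.

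Sox2, an intronless gene for an HMG-box factor that binds DNA together with the Pou5f1 product, lies on chromosome 3 from 34649995 to 34652461 and is 2.47 kb long. Its domain ran from 34650451 to 34651350, a width of 0.900 kb. It was wholly inside the gene, from 456 to 1355 bases after the annotated start, and covered 36.5% of the body. Of the 10 genes, 1 (Sox2) had at least 10% of its body covered, beside 3.91% of protein-coding genes. The promoter printed above and the first bases of the transcript therefore lay outside it. Sox2 also lies within Sox2ot, a long noncoding RNA gene that spans 117.6 kb around it (34560381 to 34677993), so the same 0.900 kb was the only domain sequence in Sox2ot, 0.765% of its length. None of the other 4 annotated genes within 50 kb of Sox2 met a domain.

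The Sox2 domain was small: only 7.43% of all listed domains were as narrow or narrower. No other domain lay within 50 kb of the gene, while the 1 Mb around it held 9, beside a median of 7 for protein-coding genes. The nearest other domains were 258.6 kb upstream (0.750 kb wide) and 150.8 kb downstream (0.900 kb wide), and the nearest wide one, 17.55 kb across, began 186.4 kb downstream at 34838851. When domains under 1 kb were left out, the domain in Sox2 was lost and the nearest remaining one was that wide domain at 186.4 kb.

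Few genes as short as Sox2 met a domain. Of 393 other protein-coding genes with a body within 10% of its length, 15 did (3.82%, beside 14.1% of all protein-coding genes). Of those, 7 were covered at least as fully. The 3 with a covered share nearest to that of Sox2 were Ly6l (35.9%), Nhlrc1 (39.0%) and Cebpa (45.5%), each with 1 domain. Cebpa, on chromosome 7 from 35119293 to 35121928, encodes a transcription factor of myeloid cells, liver and fat. These 3 are alike in covered share only, in 1 domain list.

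Stat3, which encodes the transcription factor activated downstream of LIF receptor signalling, lies on chromosome 11 from 100886806 to 100939594 (52.8 kb) on the minus strand. Its domain, at 100893901 to 100897050, was 3.15 kb wide, close to the median of 3.00 kb over the whole list, and covered 5.97% of the body. It lay toward the 3′ end, 42.5 kb from the transcription start. Whether it overlaps an exon was not determined, since exons were not used here. A second, narrow domain of 0.750 kb (100880251 to 100881000) lay 5.81 kb beyond the 3′ end, wholly inside the neighbouring gene Stat5a, a paralog of Stat3, and covered 2.91% of Stat5a. Stat5b and Cavin1, the other protein-coding genes within 50 kb, met none.

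On the upstream side of Stat3 the next domain was 682.3 kb away. Only 3 domains lay within 500 kb of the middle of Stat3, with a median width of 0.750 kb, and the one inside Stat3 was the widest of them. Of 850 other protein-coding genes with a body within 10% of the length of Stat3, 154 met a domain (18.1%, beside 14.1% of all protein-coding genes). Of these, 68 were covered at least as fully. The nearest in covered share were Ston1 (5.97%), Triml1 (5.92%) and Cyb5r4 (5.92%).

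**Figure D1:**
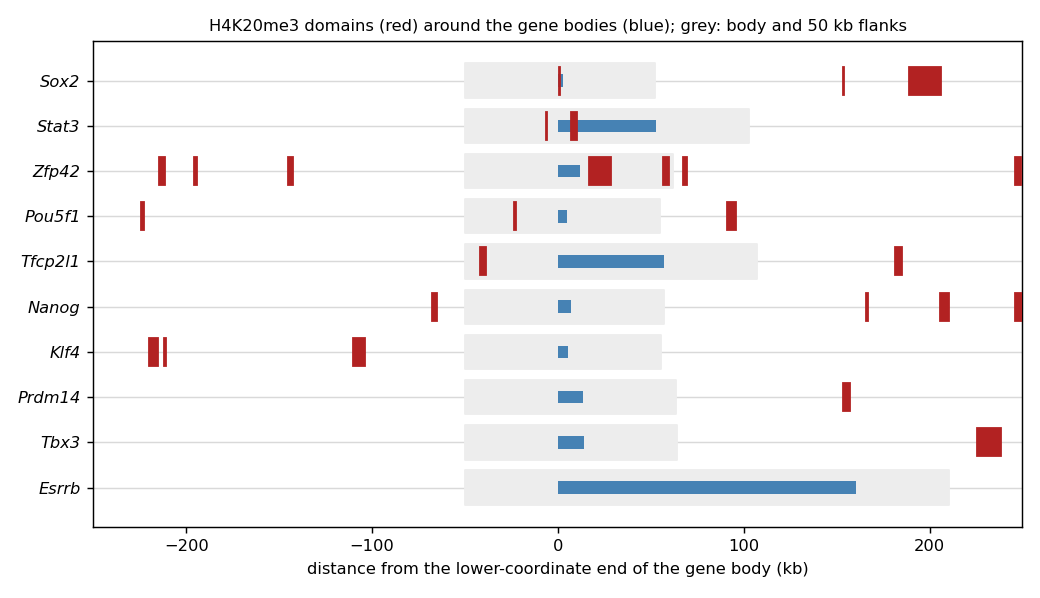
Listed H4K20me3 domains (red) within 250 kb of the lower-coordinate end of each gene body (blue), with the body and its 50 kb flanks in grey and genes ordered by distance to the nearest domain; the x axis is distance in kb. Domains met the bodies of Sox2 and Stat3, and the window of Esrrb was empty throughout.

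Zfp42, a zinc finger gene of naive embryonic stem cells, had no domain in its body (chromosome 8, 43295067 to 43307009) but the most domain sequence around it. A domain of 12.15 kb, from 43311601 to 43323750, began 4.59 kb upstream of its start, and 96.1% of all domains were as narrow or narrower. A second domain of 3.15 kb (43351501 to 43354650) lay farther upstream in the same flank. Neither overlapped an annotated gene, and no other annotated gene lay within 50 kb of Zfp42. Together they came to 15.3 kb, or 63.0% of all domain bases in the 10 windows, and covered 13.7% of the Zfp42 window. Of protein-coding genes, 9.17% had as much domain sequence or more within 50 kb. On the downstream side the first domain was 142.5 kb away, inside Triml1.

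Pou5f1, on chromosome 17 from 35506032 to 35510777, had 1 domain in its window, of 0.900 kb (35482501 to 35483400), 22.6 kb upstream of the start. It overlapped no annotated gene. None of the 5 protein-coding neighbours of Pou5f1 within 50 kb (H2-Q10, Tcf19, Cchcr1, Psors1c2 and Cdsn) met a domain. The next domain, of 4.65 kb, lay 86.5 kb downstream. Without domains under 1 kb, this one became the nearest, so the position of Pou5f1 in the order of distances rests on a single narrow domain, like that of Sox2.

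Tfcp2l1, a factor of the naive network that responds to LIF, lies on chromosome 1 from 118627923 to 118685168. Its only domain within 50 kb was 3.30 kb wide (118585951 to 118589250), 38.7 kb upstream of the body and inside the neighbouring gene Clasp1, of which it covered 1.50%. The next domain on the downstream side was 124.0 kb away.

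Nanog, a homeodomain factor of the naive state, lies on chromosome 6 from 122707489 to 122714633. Its nearest domains were 65.2 kb upstream (2.40 kb wide, over an annotated small nucleolar RNA gene) and 158.8 kb downstream (0.750 kb wide). None of the 3 annotated genes within 50 kb, Slc2a3 and the pseudogenes Gm10420 and Gm10224, met a domain.

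Klf4, a zinc finger factor used in reprogramming, lies on chromosome 4 from 55527137 to 55532475. Its nearest domains were 103.6 kb downstream (6.60 kb wide, over the long noncoding RNA gene Gm12505) and 333.4 kb upstream. Prdm14, a repressor of differentiation genes and of DNA methylation, lies on chromosome 1 from 13113428 to 13127163. Its nearest domain was 139.6 kb away, 4.05 kb wide and inside Ncoa2, a long neighbour whose nearer end lies within 50 kb of Prdm14. The nearest domain on the other side, in Sulf1, was 371.2 kb away.

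Tbx3, a T-box factor, lies on chromosome 5 from 119670534 to 119684724. Its nearest domain was 211.2 kb away but wide, at 13.35 kb (119895901 to 119909250), and the nearest on the other side was 440.0 kb away. Esrrb, an orphan nuclear receptor gene and the longest of the 10 at 160.5 kb (chromosome 12, 86361117 to 86521628), was the farthest from any domain. Its nearest domain was 407.7 kb downstream (1.35 kb wide), and the nearest upstream was 708.6 kb away.

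Esrrb thus sat in an interval of 1277 kb without a listed domain. Among the 18402 protein-coding genes that met no domain and had one on either side, 4.44% sat in an interval as long or longer. The intervals around the other 7 genes without a domain in the body ran from 113.8 kb at Pou5f1 to 665.4 kb at Tbx3. The median over all 8 was 336.8 kb, beside 319.4 kb for protein-coding genes.

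**Figure D2:**
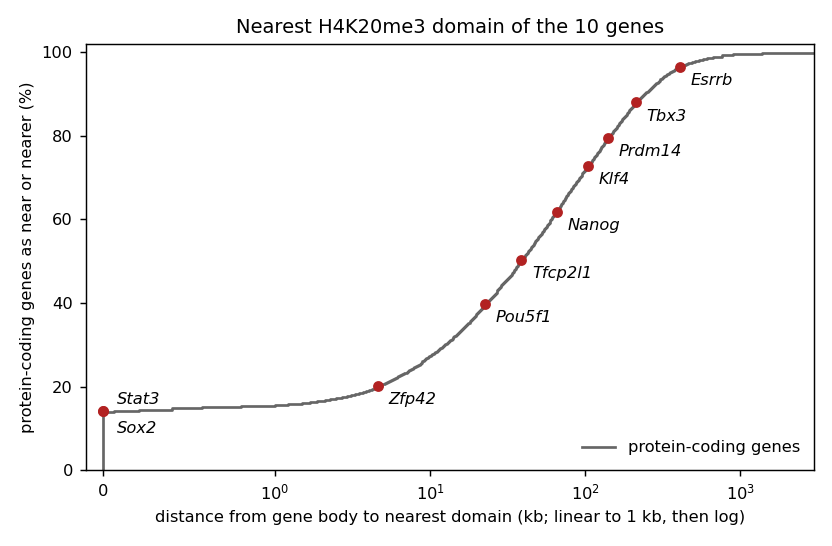
Distance from each gene body to the nearest listed domain (x axis, kb, linear to 1 kb and logarithmic beyond) against the percentage of protein-coding genes that were as near or nearer (y axis); the line shows all protein-coding genes. The 10 genes ran from the overlapping Sox2 and Stat3 (14.1%) to Esrrb (96.6%).

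Set against all protein-coding genes, the 10 genes were spread over most of the range of distances. The share of protein-coding genes as near or nearer was 14.1% at Sox2 and Stat3, 20.1% at Zfp42, 39.7% at Pou5f1 and 50.2% at Tfcp2l1. It was 61.9% at Nanog, 72.7% at Klf4, 79.5% at Prdm14, 88.0% at Tbx3 and 96.6% at Esrrb. A distance over 100 kb was found for 4 of the 10, beside 28.1% of protein-coding genes.

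The number of domains in the 1 Mb around each gene ranged from 1 at Esrrb to 23 at Zfp42. The median was 8 for the 10 genes and 7 for protein-coding genes. Zfp42 was in a dense region, since 94.6% of protein-coding genes had as few or fewer, and Nanog followed with 14 domains (79.9%) and Prdm14 with 11 (70.8%). Stat3 and Tbx3 had 3 each (20.7%). Stat3 thus met a domain in a sparse region, whereas Nanog met none in a denser one. The 2 bodies differ in length, at 52.8 kb for Stat3 and 7.145 kb for Nanog. The 3 domains counted at Stat3 include the one inside it. The values for the remaining genes were 9 at Sox2, 8 at Klf4 and Tfcp2l1, and 6 at Pou5f1.

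**Figure D3:**
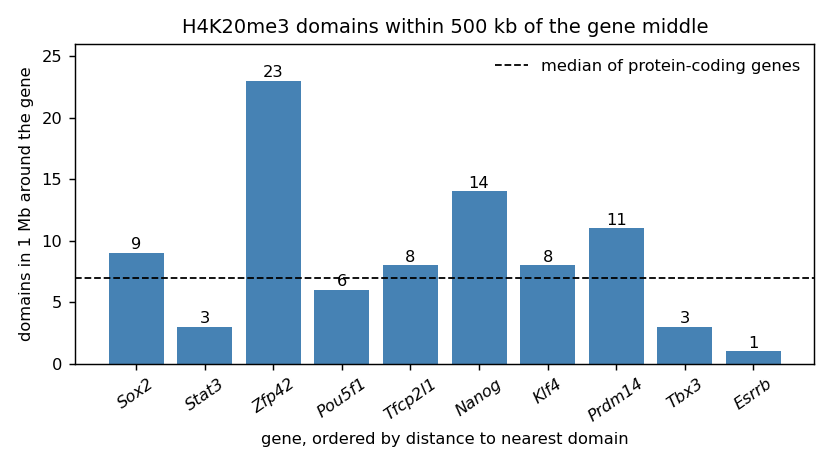
Number of listed H4K20me3 domains within 500 kb of the middle of each gene body (bars, y axis), genes ordered from left to right by distance to the nearest domain, with the median of protein-coding genes (7) as a dashed line. Zfp42 had 23 domains and Esrrb 1.

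RefSeq promoter windows, from 250 bases before to 50 bases after a start, were matched for 8 of the 10 genes; none was matched for Prdm14 and Tbx3. No domain touched the window of any of the 8, where 1.54% of 17274 protein-coding promoter windows were touched. The starts of Sox2 (0.455 kb to its domain) and Zfp42 (4.59 kb) were within 5 kb of a domain, 2 of 8 beside 7.18% of protein-coding starts. From the start, Stat3 was 42.5 kb from a domain, although its body overlapped one.

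The 8 promoters differed widely in CpG content. The CpG ratio, the number of CpGs over the number that the C and G content of the window would give, was 0.974 at Klf4, 0.819 at Sox2, 0.656 at Tfcp2l1, 0.545 at Stat3, 0.441 at Zfp42, 0.374 at Pou5f1, 0.266 at Esrrb and 0.192 at Nanog. The median of protein-coding promoters was 0.586, and that of the 266 promoters touched by a domain was 0.387. The 2 genes with a domain in the body stood on either side of the first of these medians.

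The promoter windows were also searched for ATGCAAA, a core of the octamer bound by POU factors, and TTCNNNGAA, the motif of STAT factors, on both strands. Sox2, Zfp42 and Nanog held the octamer core, beginning 99, 185 and 75 bases before the start, 3 of 8 beside 4.22% of protein-coding promoters. Only Esrrb held the STAT motif, which 7.87% of protein-coding promoters held. None of the 8 windows held both motifs, and a match is a description of the letters only.

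Genes of LIF and JAK-STAT signalling, the pathway that ends in Stat3, had 1 of 12 members with a domain in the body, beside 14.1% of protein-coding genes. This was Lifr, the LIF receptor gene (chromosome 15, 7090610 to 7197489), with 2 domains that covered 7.95 kb, or 7.44% of its body. The pathway's co-receptor gene Il6st, the kinase genes Jak1, Jak2 and Tyk2, and the feedback inhibitors Socs1 and Socs3 met none. In the body or within 50 kb, 6 of 12 had a domain, beside 55.8% of protein-coding genes.

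Among 30 other embryonic stem cell factors, only Rif1, a gene of replication timing and telomere biology, met a domain, with 0.869 kb or 1.61% of its body covered. Klf2, Klf5, Sall4, Nr5a2, Dppa3 and Fgf4 were among those that met none. Within 50 kb, 15 of the 30 had a domain (50.0%, beside 55.8%). Of 12 factors of primed or formative cells, Etv5, an ETS factor gene that responds to FGF signalling, met 1 domain (1.65 kb, 2.83%), and 4 had one within 50 kb (33.3%, beside 55.8%). The share of genes with a domain in the body was 8.33%, 3.33% and 8.33% in these 3 lists, beside 14.1% of protein-coding genes. Their median distances to a domain were 50.2, 49.0 and 58.0 kb, beside 38.3 kb.

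Paralogs of 8 of the 10 genes, all but Nanog and Zfp42, were taken by symbol from 8 families. They met a domain in 9 of 85 cases (10.6%, beside 14.1% of protein-coding genes). In the Sox family these were Sox6 (3 domains, 10.95 kb), Sox5 (5 domains, 10.2 kb), Sox30 (3.15 kb) and Sox13 (2.25 kb), 4 of 18 genes. All 4 are much longer than Sox2, at 38.9 to 953.9 kb, and their covered shares were 1.07 to 8.09%, below the 36.5% of Sox2. In other families they included Klf12 (3 domains, 12.9 kb), Prdm6 (2 domains, 5.10 kb), Tfcp2 (1.80 kb) and Stat5a (0.750 kb). No other Esrr gene (of 2) and no other Tbx gene (of 12) met one. Within 50 kb, 45 of the 85 paralogs had a domain (52.9%, beside 55.8%).

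**Figure D4:**
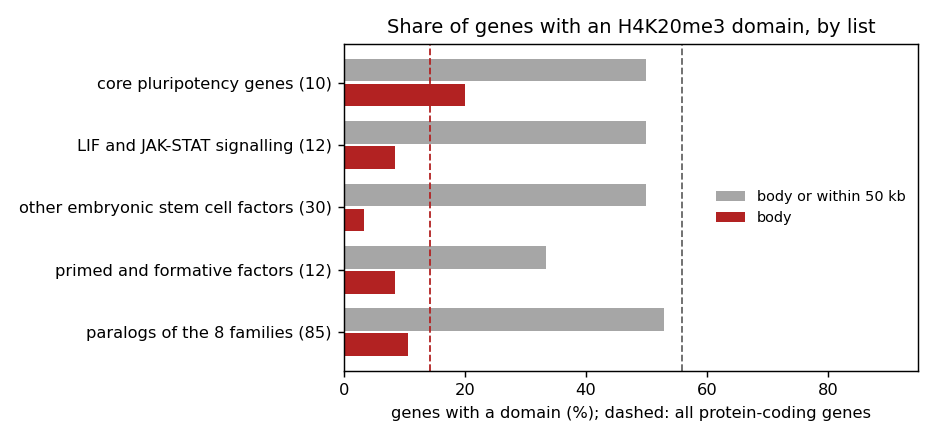
Percentage of genes with a listed H4K20me3 domain in the body (red) or in the body or within 50 kb (grey), by gene list with its number of genes; dashed lines give all protein-coding genes (14.1% and 55.8%). The 10 core genes stood at 20.0% and 50.0%, where 1 gene is worth 10 percentage points.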

How the data were processed

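H4K20me3 ChIP-seq was made from 12 samples (4 times, 3 replicates each). Per the labels' protocols, Drosophila chromatin was added as a spike-in, and per the series description inputs served as controls; neither enters here. Per the submitters' processing notes, the tools included bedtools, deepTools, SAMtools 1.1 and Bowtie2 2.3.4.1, with no role stated. The deposited list gives domain positions as start and end in bases, an other kind of value with no signal; per the file name the authors called them with RSEG, and the sources used here do not give its version, its threshold or which libraries entered. All but 1 of the 28210 domains have both ends on a 150-base grid, so distances and covered bases are no finer than that.

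Genes came from a RefSeq table of GRCm38.p6 (mm10), and starts and strands from its promoter table. Of 49214 genes with a start beyond 3 Mb on chromosomes 1 to 19 and X, 21523 were protein-coding, and 17274 of these had a promoter window; for genes with several starts the outermost was used. A gene met a domain when at least 1 base was shared. Distance counts the bases between body and domain. No test was run, since no sample is named in the list. Interval counts were tested on simulated data against a base-by-base count. The genes and lists were chosen with earlier results of these data known. Named were the 10 genes, annotated genes under domains in their windows, list genes that met a domain (1 of them is not reported here), and the 3 genes of like length nearest in covered share to Sox2 and to Stat3; other neighbours, the genes under the next domains outside the windows and list genes that met none were named after their values were seen. Promoter composition, 1 Mb counts, domain-free intervals and pseudogene copies were added after the data were seen. Python 3.11.15, numpy 2.4.6, pandas 2.3.3 and matplotlib 3.10.9 were used.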

Additional observations from a re-analysis of the deposited data

How the results depend on the processing

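The count of genes with a domain in the body fell from 2 to 1 with the list limited to domains of at least the median width, 3.00 kb (8.42% of protein-coding genes met one), without domains under 1 kb (13.0%), where Stat3 remained in both, and to 1, Sox2, when at least 10% of the body had to be covered (3.91%). The count with a domain within 50 kb fell from 5 to 3 under each of the first 2 settings (37.2% and 52.3%) and to 3 with a flank of 10 kb (27.4%), and was 4 at 25 kb (41.5%) and 6 at 100 kb (71.9%). The median distance rose from 51.95 kb to 121.6 kb with that width limit (91.5 kb for protein-coding genes) and to 95.05 kb without domains under 1 kb (44.9 kb for protein-coding genes). Merging domains closer than 5 kb or requiring 500 covered bases left each count it was applied to unchanged. Widening bodies by 5 kb, chosen after seeing the data, raised the body count from 2 to 3 (20.6% of protein-coding genes), which is within 1.5 times. Measuring from the start gave a median of 40.6 kb (53.9 kb for protein-coding starts), but over 8 genes only, without Prdm14 and Tbx3. Over the same 8 the median from the body, added after seeing the data, was 30.7 kb (37.5 kb for protein-coding genes with a start). In both, the order against protein-coding genes was the opposite of that over all 10. Single distances moved by more in 6 of 30 cases: Sox2 (186.4 kb) and Pou5f1 (86.5 kb) in both width settings, and Nanog (198.2 kb) and Esrrb (627.3 kb) with the median-width limit. No paired analysis was possible because the list names no sample, and for the same reason no replicate could be left out. The authors' threshold was not available as a setting.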

Other observations

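Pseudogene copies of the pluripotency genes were looked up after the reference table had been seen. They were taken as annotated pseudogenes whose symbol or synonym names one of the 10 genes, and how they arose was not examined. Of 10 such copies (7 of Pou5f1, 2 of Nanog and 1 of Zfp42), 1 met a domain, beside 9.58% of 10409 annotated pseudogenes. It was Gm21054, a transcribed pseudogene of Pou5f1 on chromosome 6 (103964035 to 103964684), which lay wholly inside a domain. Of the others, Gm2071, another Pou5f1 copy, was 1.99 kb from a domain and Nanog-ps1, on X, 8.82 kb, while Pou5f1-rs9 was 260.1 kb away. The median distance over the 10 copies was 25.1 kb, beside 24.8 kb over all annotated pseudogenes.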
